A study of Quercus x morisii and Quercus suber and Quercus ilex with 16 samples.

Results

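Rhytidome-like bark of natural oak hybrids was compared with the midpoint of its parents, the average of the mean level in cork of cork oak and the mean level in rhytidome of holm oak. The comparison used 12 of the 16 libraries of the series and, of 47292 loci in the deposited table, the 25556 with a mean value of at least 1 over these 12 libraries. Each locus was then sorted by where the hybrids lay, which gave 664 loci above both parents and 1339 below both. A further 1860 departed from the midpoint to the rhytidome side, 271 to the cork side, and 1892 lay about midway. The other loci were 1850 that differed between the parents without a clear position of the hybrids, and 17680 with no call between the parents.

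Adult *Quercus suber* (cork oak, 4 trees), *Quercus ilex* ssp. *rotundifolia* (holm oak, 4 trees) and *Q. ilex* x *Q. suber* hybrids with rhytidome-like bark (4 trees) of a mixed natural forest gave 1 library per tree, from the south side of the trunk at breast height. The labels name no treatment, and the cork oaks had not been stripped before, so their bark was virgin cork. Hybrids were told from the parent species by morphology and molecular markers, and the paper describes most of those identified as F1. It does not state this for each of the 4 trees, and nothing says that the sampled parents were their own. Material was scraped from the inner face of the detached outer bark in the season of active growth. According to the paper, in rhytidome-type bark, that of holm oak and of these hybrids, it also held living secondary phloem. The series also sequenced 4 sides of a single hybrid tree with cork-like bark, which were not used here.

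The outer bark of a trunk is built by the phellogen, a meristem that divides to give phellem (cork) on its outer side. Phellem cells coat their walls with suberin, a polyester of long fatty acids, glycerol and ferulic acid, and then die. In cork oak a single phellogen persists and forms a thick, even phellem, whereas in holm oak new phellogens arise deeper in the bark and cut off dead phloem, so that thin phellem layers alternate with phloem in a rhytidome. In a first-generation hybrid each parent gives a copy of every gene, and a level near the midpoint of the parents is called additive, a level near 1 parent dominant, and a level past either parent is described as outside both.

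The deposited values are regularized log2 (rlog) counts, so a difference of 1 is a change of the normalized count by a factor of about 2, understated at loci with few counts. Within a bark, libraries correlated over loci at 0.961 to 0.967 (cork), 0.930 to 0.955 (rhytidome) and 0.945 to 0.953 (rhytidome-like), with rhytidome 94 the least like its group. The median SD of a locus over the 4 trees was 0.319 in cork, 0.429 in rhytidome and 0.479 in rhytidome-like bark. Library medians ran from 7.47 to 7.50 for cork, 7.69 to 7.74 for rhytidome and 7.29 to 7.38 for the hybrids, and over the 17675 loci with a mean of at least 5 from 9.13 to 9.14, 9.13 to 9.18 and 9.01 to 9.08. Reads of all trees were mapped to the cork oak genome, so reads of holm oak alleles could map less often, and the part of this in the values was not tested. The libraries are bulk tissue, in which fewer cells of a type and less RNA per cell cannot be told apart.

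The hybrids departed from the parental midpoint at 5180 loci, 2107 higher (8.24% of the loci tested) and 3073 lower (12%), by limma at a Benjamini-Hochberg adjusted p under 0.01 and a difference above 1. Higher loci were therefore 40.7% of those called, and this share was 56.9% when each library was centred on its own median, which raised every midpoint difference by 0.26. With the midpoint taken on the linear scale of counts, which lies nearer to the higher parent than the midpoint of the logs, higher loci were 29.2% of those called. The parents differed at 6492 loci by the same rule, with cork higher at 2654 (10.4%) and rhytidome higher at 3838 (15%).

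The direction of the departure differed with the parent that had the higher level. Of the 2654 loci higher in cork, the hybrids were lower than the midpoint at 1231 and higher at 83. Of the 3838 loci higher in rhytidome, they were higher than the midpoint at 951 and lower at 193. Loci with no call between the parents, 19064 of the 25556 tested, held most departures, with 1073 higher and 1649 lower. Most loci tested are in this group, and 20.3% of all loci tested departed from the midpoint.

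**Figure D1:**
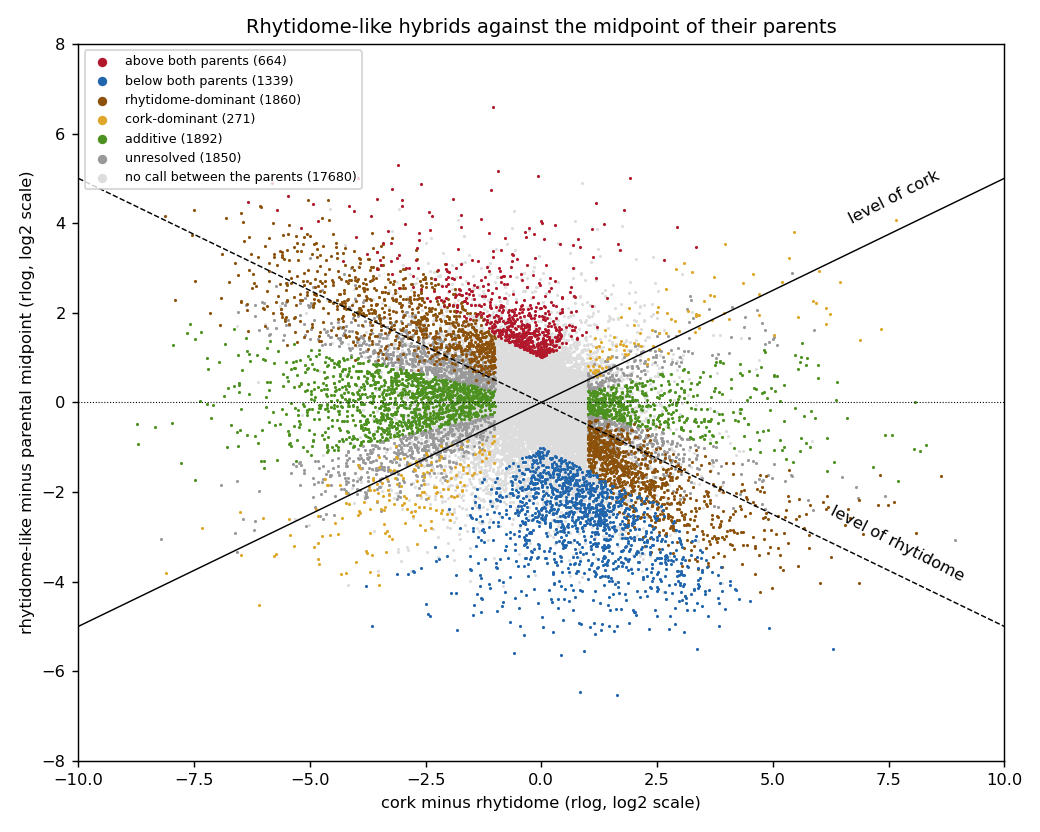
Each point is 1 of the 25556 loci, with cork minus rhytidome on the horizontal axis and rhytidome-like minus the parental midpoint on the vertical axis, both on the log2 scale of the rlog. The solid line is the level of cork and the dashed line the level of rhytidome. Colours give the class, and rhytidome-dominant loci (1860) lie along the dashed line at both ends while cork-dominant loci (271) are few.

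To place each hybrid tree between the parents, its value at every locus called between the parents was put on a scale on which the rhytidome mean is 0% and the cork mean 100%. The mean of the hybrids had a median position of 17.5% over 6492 loci (quartiles -22.1% and 55.3%). Tree 21 had a median of 14.9%, tree 14 of 14.9%, tree 18 of 13.7% and tree 20 of 16.7%, so the SD of the tree medians was 1.21 percentage points. These loci were chosen by the parents, and the positions are given with no test.

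All 4 trees were nearer to rhytidome at 3491 loci (53.8%) and nearer to cork at 898 (13.8%). The trees disagreed at the rest, with 1 tree nearer to cork at 12.5% of loci, 2 trees at 9.61% and 3 trees at 10.3%. Where cork was higher all 4 trees were nearer to rhytidome at 66.6% of loci, and where rhytidome was higher at 44.9%. The median position was -5.04% at loci higher in cork and 29.8% at loci higher in rhytidome, and each tree showed this order, from -8.55% to -4.38% at the former and up to 30.3% at the latter.

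**Figure D2:**
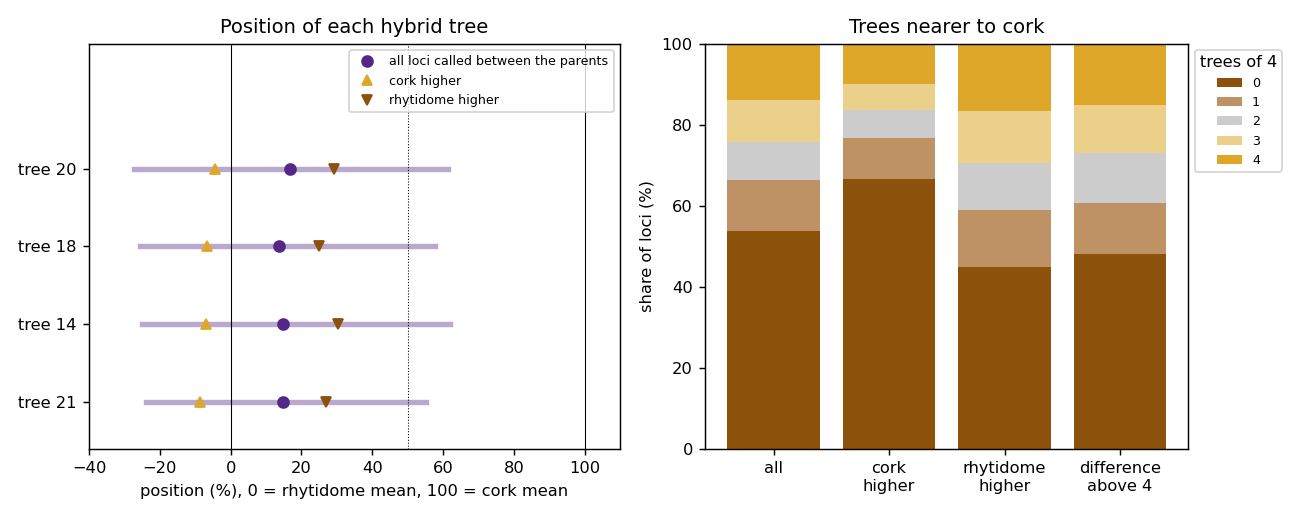
On the left, the position of each rhytidome-like tree in percent between the rhytidome mean (0) and the cork mean (100), as the median (circle) and quartiles (bar) over 6492 loci, with medians for loci higher in cork and higher in rhytidome as triangles. On the right, the share of loci by how many of the 4 trees were nearer to cork. Medians of the trees lie between 13.7% and 16.7%, and all 4 trees are nearer to rhytidome at 53.8% of loci.

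Classes were then assigned. Loci called against cork and against rhytidome in the same direction were outside both parents. Of the remaining loci called between the parents, those whose midpoint difference had an adjusted p under 0.01 were rhytidome-dominant below a position of 50% and cork-dominant above it, those with a larger p were additive at positions of 25% to 75%, and the rest stayed unresolved. A midpoint difference that missed the threshold does not show additivity, so the additive class describes where the mean lay. The dominant classes set no limit on nearness to a parent, and their median positions were -24.3% (rhytidome-dominant) and 116% (cork-dominant). All 4 hybrid libraries lay above all 8 parental libraries at 172 rhytidome-dominant loci (9.25%) and below them at 214 (11.5%). These shares were 7.54% and 8.8% over all loci tested. Over all loci tested, 2.6% were above both parents, 5.24% below both, 7.28% rhytidome-dominant, 1.06% cork-dominant, 7.4% additive and 7.24% unresolved.

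Loci higher in cork and loci higher in rhytidome were spread differently over the classes. Of the loci higher in cork, 35.9% were rhytidome-dominant, 17% below both parents, 21.3% additive and 3.62% cork-dominant. Of those higher in rhytidome, 34.6% were additive, 23.6% rhytidome-dominant, 4.56% cork-dominant and 3.54% above both. A level under that of both parents was thus found at 450 loci higher in cork and 27 higher in rhytidome, and a level above both at 6 and 136. The classes follow from the same 12 libraries as the call between the parents, and the difference in these shares was not tested.

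The share of additive loci differed with level, mainly where rhytidome was higher. With rhytidome higher, 46.2% of loci with a mean under 5 were additive and 8.33% rhytidome-dominant. At a mean of at least 5 these shares were 26.1% and 34.8%. With cork higher the shares changed less, from 27.2% additive and 32.6% rhytidome-dominant under 5 to 20% and 36.6%. The median position over both directions was 44.6% at loci under 5 and 2.53% at loci of at least 5. The rlog shrinks differences more strongly where counts are low, and its part in this difference was not tested. At a mean of at least 5 the order of the parents remained, with a median position of -11.3% where cork was higher and 11.4% where rhytidome was higher.

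**Figure D3:**
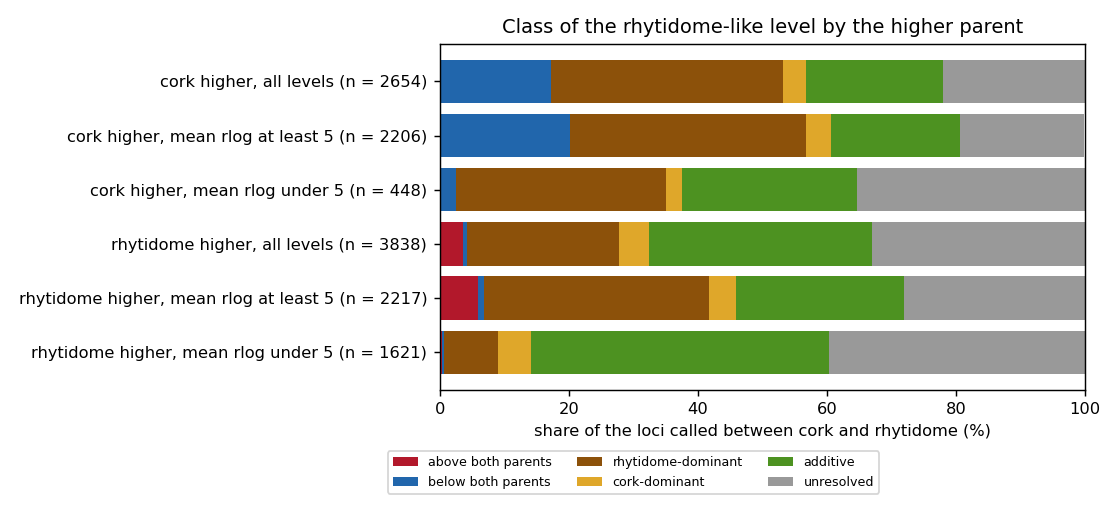
Horizontal bars give the share of loci in each class, in percent of the loci called between cork and rhytidome, by the parent with the higher level and by the mean rlog over 12 libraries. Loci higher in cork hold 17% below both parents, and loci higher in rhytidome with a mean under 5 hold 46.2% additive.

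Loci with a parental difference above 4 showed whether the higher parental level was kept. At 243 loci higher in cork the hybrids were below cork by a median of 4.13 (a median hybrid minus cork of -4.13, quartiles -5.23 and -2.16). Of these, 24 (9.88%) were within 1 of cork and 92 (37.9%) within 1 of rhytidome. At 702 loci higher in rhytidome the median hybrid minus rhytidome was -1.59 (quartiles -2.98 and -0.28), with 242 (34.5%) within 1 of rhytidome and 86 (12.3%) within 1 of cork.

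Trees took opposite parental levels at few of these loci. At 79 of the 945 loci with a difference above 4 (8.36%), at least 1 tree was within 1 of each parent, and 34 of them had a mean of at least 5. Tree 21 was the one near cork at 21 of the 79, tree 14 at 35, tree 18 at 26 and tree 20 at 35, with more than 1 tree near cork at some.

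The classes outside both parents hold the loci where the hybrids left the parental range. All 4 hybrid libraries lay above all 8 parental libraries at 644 of 664 loci above both, and below them at 1302 of 1339 loci below both. Such a pattern was found at 7.54% (above) and 8.8% (below) of all loci tested. This non-overlap rests on the values that placed the loci in these classes and is given as a description. The smaller of the distances from the parents had a median of 1.39 above both and 2.00 below both, and it exceeded 2 at 114 loci above and 672 below. Distances just inside the limit of 1 were 1.00 in both classes. Parents had no call at 78.6% of loci above both and at 64.4% of loci below both.

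The counts outside both parents depended on the threshold, on scaling and on single trees. A test of a difference of more than 1 from each parent (limma treat) gave 50 above and 253 below, against 664 and 1339 for a difference whose estimate exceeded 1. Centring each library on its median gave 1383 above and 916 below, which turned the order of these counts. Without tree 20 the counts were 489 and 1179, and without tree 21 they were 766 and 1351. Named loci with a call at the midpoint did not change sign with a call under any setting tried.

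Names were known for 885 loci, from Arabidopsis matches in the study's tables, and 535 of these were tested. They are the loci of a part of those tables and of the study's selection of 88 development, cell wall and RT-qPCR genes, which the authors chose on these samples. The share of named loci in a class is therefore no estimate for all loci, and counts within the selection are not independent evidence of a direction. Of the 88 loci, 14 were higher than the midpoint and 53 lower (against 8.24% and 12% of all loci tested), with a median midpoint difference of -1.98 against -0.02 over all loci. By class, 9 were above both parents and 43 below both (2.6% and 5.24% of all loci), and the former count was 6 without tree 14 or 18, 5 without tree 20 and 4 after quantile normalization.

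Most loci of the suberin lists were lower in the hybrids than in either parent. The 4 lists for suberin synthesis, GDSL esterases, transport and MYB regulators hold 34 tested loci, 32 of them in the study's selection, and 28 were below both parents against 5.24% of all loci. None was called higher than the midpoint, although the *MYB84* match LOC112010399 differed by 2.23 (adjusted p = 0.0234), and 1 transport locus was called higher after median centring and without cork 91 or rhytidome 68. The median difference of all 34 loci was -3.48 from the midpoint, -4.94 from cork and -2.25 from rhytidome. These are RNA levels and no measure of suberin. In the paper's chemical analysis, suberin of rhytidome-like hybrids lay on both sides of that of a single holm oak sample. The paper also describes the periderms of the F1 hybrids as thicker than those of holm oak.

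Suberin synthesis was below both parents at 7 of 9 loci, against 5.24% of all loci tested, with a median midpoint difference of -4.20. *ASFT/FHT* (LOC112001733), the feruloyl transferase that adds ferulic acid to suberin monomers, was at 15.71, 16.26, 16.21 and 15.75 in the cork libraries 87, 89, 90 and 91, and at 14.84, 14.12, 14.10 and 14.22 in the rhytidome libraries 33, 67, 68 and 94. In the hybrid trees 21, 14, 18 and 20 it was at 10.01, 11.38, 11.49 and 11.27. All hybrids lay below all parents, tree 21 lowest, and the difference was -4.94 (SE 0.30, adjusted p = 1.37e-07) from cork and -3.28 (SE 0.30, adjusted p = 2.21e-05) from rhytidome. LOC112007140, which shares its Arabidopsis match, was at 16.94 ± 0.34 in cork, 13.96 ± 0.34 in rhytidome and 11.02 ± 0.52 in the hybrids (mean ± SD, n = 4). Reads mapping to more than 1 place were discarded, so near-identical copies can be undercounted.

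*KCS2* (LOC112030764), a ketoacyl-CoA synthase that elongates the fatty acids of suberin, was at 15.37, 15.77, 15.77 and 15.40 in cork and 12.88, 12.20, 12.14 and 12.49 in rhytidome. The hybrids were at 8.21, 9.40, 9.51 and 10.39. Hybrids, rhytidome and cork formed 3 separate ranges, and the midpoint difference was -4.62 (SE 0.31, adjusted p = 5.53e-07). *GPAT5* (LOC112028279), the acyltransferase that joins fatty acids to glycerol, was at 16.26, 16.46, 16.59 and 16.14 in cork, at 13.24, 12.67, 12.49 and 12.54 in rhytidome and at 8.81, 10.92, 10.62 and 11.06 in the hybrids. Again no library of the hybrids reached a parent, and the midpoint difference was -4.20 (SE 0.35, adjusted p = 2.59e-06). *CYP86B1* (LOC112009780), which hydroxylates very long chain fatty acids, differed from the midpoint by -4.54 (SE 0.35, adjusted p = 1.45e-06), and the fatty alcohol-forming reductase *FAR4* (LOC112006016) by -4.63 (SE 0.32, adjusted p = 7.22e-07). The loci not called were *CYP94B3* (LOC112005217), at -1.06 with an adjusted p of 0.0122, and *CYP94B1* (LOC112020942), at -1.06 with an adjusted p of 0.305, whose enzymes in Arabidopsis oxidize jasmonoyl-isoleucine.

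**Figure D4:**
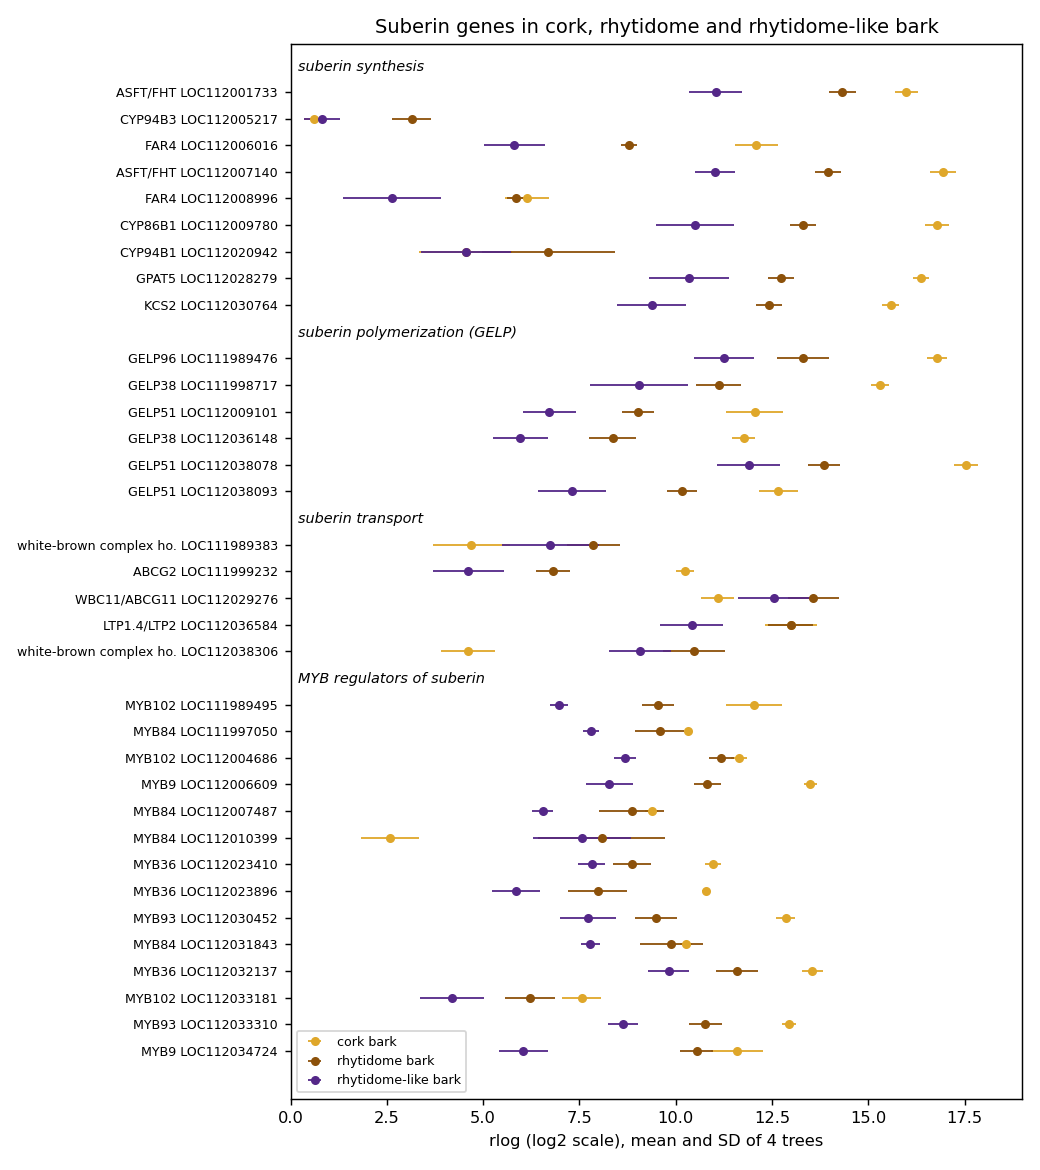
Points are mean rlog values on the log2 scale with the SD of 4 trees, for the 34 tested loci of the suberin lists in cork, rhytidome and rhytidome-like bark. At 28 loci the rhytidome-like level was called below both parents, and the white-brown complex loci are among those without this call.

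The GDSL esterases and lipases, some of which polymerize suberin in Arabidopsis, were below both parents at 6 of 6 loci, against 5.24% of all loci. Their median midpoint difference was -3.96. *GELP51* (LOC112038078) was at 17.14, 17.91, 17.54 and 17.54 in cork and 14.33, 13.50, 13.53 and 14.06 in rhytidome. Its hybrid libraries were at 10.67, 12.34, 12.27 and 12.31. The ranges of the 3 barks were separate, and the hybrid minus rhytidome difference was -1.96 (SE 0.35, adjusted p = 0.00145).

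Transport of suberin monomers differed by locus. *ABCG2* (LOC111999232), an ABC transporter of Arabidopsis suberin, was below both parents with a midpoint difference of -3.91 (SE 0.35, adjusted p = 4.90e-06). The lipid transfer protein *LTP1.4/LTP2* (LOC112036584) was at 13.15, 13.72, 12.96 and 12.10 in cork and 12.84, 12.39, 12.94 and 13.78 in rhytidome. The hybrids were at 9.34, 10.21, 11.02 and 11.09, below parents that overlapped with each other, with a midpoint difference of -2.57 (SE 0.37, adjusted p = 0.00017). *WBC11/ABCG11* (LOC112029276), an exporter of cutin and suberin lipids, was higher in rhytidome and additive, at 11.09 ± 0.43 in cork, 13.57 ± 0.66 in rhytidome and 12.55 ± 0.93 in the hybrids. Of the other loci matched to it, 1 was additive (LOC111989383) and 1 unresolved (LOC112038306).

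MYB factors listed as regulators of suberin were below both parents at 13 of 14 loci, against 5.24% of all loci tested. Their median midpoint difference was -2.74. The largest distance among named loci below both was at *MYB9* (LOC112034724), an activator of suberin synthesis in Arabidopsis seed coats. It was at 11.27, 12.12, 12.19 and 10.79 in cork and at 10.93, 10.79, 9.96 and 10.50 in rhytidome, and these ranges overlapped. The hybrids were at 5.14, 6.39, 6.06 and 6.59, far under either, and the difference was -5.55 (SE 0.38, adjusted p = 2.99e-07) from cork and -4.50 (SE 0.38, adjusted p = 1.18e-05) from rhytidome. A further *MYB9* locus (LOC112006609) differed from the midpoint by -3.88 (SE 0.23, adjusted p = 3.00e-07). The exception was a locus matched to *MYB84* (LOC112010399), at 2.58 ± 0.75 in cork, 8.08 ± 1.65 in rhytidome and 7.56 ± 1.26 in the hybrids, which was unresolved.

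Tree 21 was the lowest of the hybrids at 29 of these 34 suberin loci, and at 29% of all loci tested. Tree 14 was lowest at 3, tree 18 at 2 and tree 20 at 0. In the paper's chemical analysis, the hybrid numbered 21 held the most suberin of the rhytidome-like hybrids measured. Without tree 21, the loci of suberin synthesis below both parents were again 7 of 9, with a median midpoint difference of -3.77, and the GDSL loci 6 of 6 with -3.51. The MYB loci below both were then 11 of 14, and 13 were still lower than the midpoint. Leaving out any other single library also gave 11 or 12 MYB loci below both, and quantile normalization or median centring gave 11. The GDSL loci below both were 5 after median centring. They were also 5 without cork 87, 89, 90 or 91, rhytidome 33, 68 or 94, or tree 18.

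Of the 5 wall loosening loci, 4 were lower than the midpoint (against 12% of all loci) and none was called higher, with 3 below both parents. *XTH30* (LOC112025227), a xyloglucan endotransglucosylase that remodels walls, was at 14.58 ± 0.14 in cork, 12.33 ± 0.62 in rhytidome and 9.74 ± 0.91 in the hybrids. Expansin *EXPA4* (LOC112017318), which loosens walls, was about equal in the parents, at 13.65 ± 0.28 and 13.46 ± 0.56, and at 10.81 ± 0.34 in the hybrids. Outside the gene lists, an aspartyl protease (LOC111998752) was at 8.84, 9.30, 9.50 and 8.49 in cork, at 5.43, 5.70, 7.11 and 6.33 in rhytidome and at 2.54, 2.38, 2.14 and 3.53 in the hybrids, each range apart from the others, and its midpoint difference was -4.94 (SE 0.38, adjusted p = 1.65e-06). A 2-oxoglutarate-dependent oxygenase (LOC112040234) was at 8.38, 10.51, 10.06 and 8.48 in cork, 9.05, 9.41, 5.91 and 8.01 in rhytidome and 5.18, 2.72, 4.08 and 5.0 in the hybrids. Rhytidome 68 came within 1 of the highest hybrid there, and the midpoint difference was -4.48 (SE 0.69, adjusted p = 0.000269).

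Regulators of the cambium and phellogen split in both directions, with 3 of 10 loci higher than the midpoint and 5 lower, against 8.24% and 12% of all loci. *WOX4* (LOC111988759), which keeps the vascular cambium dividing in Arabidopsis, was below both parents at 8.59 ± 0.35, against 11.67 ± 0.59 in cork and 10.12 ± 0.26 in rhytidome. *AIL6* (LOC112018242), an AINTEGUMENTA-like regulator of meristem maintenance, had a midpoint difference of -3.04 (SE 0.34, adjusted p = 2.50e-05). The HD-ZIP III factor *HB-8* (LOC112029705) had one of -1.88 (SE 0.17, adjusted p = 5.58e-06). *STM* (LOC111993990), a KNOX factor that keeps meristem cells undifferentiated, was above both parents. Its values were 11.68, 12.16, 11.70 and 11.92 in cork, 12.17, 12.54, 12.22 and 13.20 in rhytidome and 13.58, 14.27, 14.03 and 14.11 in the hybrids, and the midpoint difference was 1.80 (SE 0.20, adjusted p = 2.11e-05). The KNOX gene *KNAT1* (LOC112015571) was rhytidome-dominant, at 14.98 ± 0.25 in the hybrids against 14.11 ± 0.18 in rhytidome and 12.39 ± 0.17 in cork. *LBD4* lay on opposite sides by locus, with LOC112038775 above both parents at a midpoint difference of 2.34 (SE 0.30, adjusted p = 6.79e-05). LOC111997151 was rhytidome-dominant and lower, at -1.80 (SE 0.27, adjusted p = 0.000202). Of the 10 loci, 2 were above both parents (against 2.6% of all loci), 3 after median centring and 1 after quantile normalization. This count was also 1 without cork 89, 90 or 91, rhytidome 33 or 94, or any single hybrid tree.

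**Figure D5:**
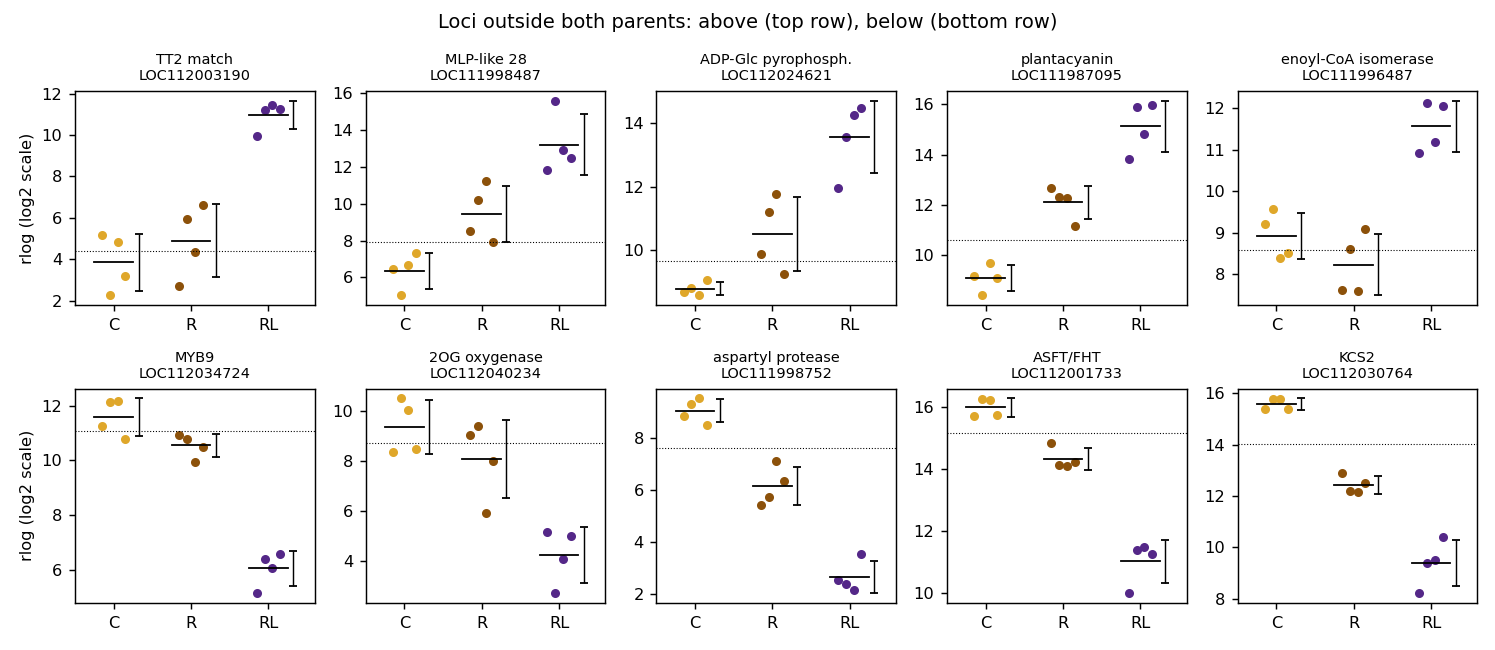
Each panel is a locus with its rlog on the log2 scale in the 4 libraries of cork (C), rhytidome (R) and rhytidome-like bark (RL), with the mean (line), the SD (bar) and the parental midpoint (dotted). In the top row all rhytidome-like libraries lie above the parents, and in the bottom row all lie below, which was a condition for choosing these loci.

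Above both parents, the largest distance among named loci was at a homeodomain-like gene (LOC112003190) whose Arabidopsis match is the MYB gene *TT2*, a regulator of proanthocyanidin synthesis in the seed coat. It was at 5.16, 2.26, 4.84 and 3.20 in cork and 2.71, 5.94, 4.33 and 6.64 in rhytidome. The hybrids were at 9.96, 11.22, 11.45 and 11.27, tree 21 lowest, and the difference was 7.11 (SE 0.85, adjusted p = 2.42e-05) from cork and 6.07 (SE 0.85, adjusted p = 0.000314) from rhytidome. At these parental levels counts are few, so the size of the difference can be understated.

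*MYB5*, which acts with *TT2* in Arabidopsis seed coats, was above both parents at both of its loci. LOC112003598 was at 8.44, 8.30, 7.54 and 7.29 in cork, 12.19, 12.15, 12.44 and 11.91 in rhytidome and 12.87, 13.16, 13.30 and 13.45 in the hybrids. Here the hybrids stood just above rhytidome, by 1.02 (SE 0.25, adjusted p = 0.00805), and far above cork. LOC112035506 was at 12.08 ± 0.52 in cork, 13.84 ± 0.47 in rhytidome and 15.76 ± 0.87 in the hybrids, with a midpoint difference of 2.80 (SE 0.35, adjusted p = 5.10e-05). Both came from the study's selection, whereas the *TT2* match did not.

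Plantacyanin (LOC111987095), a small copper protein of the cell wall, was at 9.20, 8.41, 9.68 and 9.09 in cork, 12.67, 12.33, 12.26 and 11.15 in rhytidome and 13.82, 15.90, 14.83 and 15.95 in the hybrids. The 3 barks formed separate ranges in that order, and the midpoint difference was 4.53 (SE 0.41, adjusted p = 4.75e-06). A glucose-1-phosphate adenylyltransferase family locus (LOC112024621), a family that makes the sugar nucleotide for starch, was at 8.66, 8.79, 8.58 and 9.05 in cork, 9.86, 11.21, 11.76 and 9.23 in rhytidome and 11.95, 13.56, 14.25 and 14.49 in the hybrids. Tree 21 lay within 1 of the highest rhytidome library, and the midpoint difference was 3.92 (SE 0.51, adjusted p = 7.23e-05). An enoyl-CoA isomerase of fatty acid breakdown (LOC111996487) was alike in the parents, at 9.20, 9.57, 8.39 and 8.52 and 7.62, 8.61, 7.59 and 9.08. It was at 10.91, 12.12, 11.18 and 12.06 in the hybrids, a midpoint difference of 3.00 (SE 0.35, adjusted p = 3.49e-05). MLP-like protein 28 (LOC111998487), of a family related to pathogenesis proteins, had a midpoint difference of 5.29 (SE 0.75, adjusted p = 0.000143).

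*SNF1-RPK* (LOC111986784), a beta subunit of the energy-sensing SNF1-related kinase complex, was above both with little spread. It was at 11.83, 11.64, 11.63 and 11.86 in cork and 11.16, 11.48, 11.75 and 11.71 in rhytidome. The hybrids were at 13.92, 13.86, 13.84 and 13.85, within 0.1 of each other, and the midpoint difference was 2.24 (SE 0.12, adjusted p = 1.56e-07). The study's *MYB4* loci, repressors of phenylpropanoid genes, did not lie alike. LOC112023509 was above both parents (5.16, adjusted p = 3.74e-05) and LOC111990470 rhytidome-dominant and higher (2.78, adjusted p = 2.33e-05). LOC112009383 (-2.88, adjusted p = 7.17e-06) and LOC112037069 (-2.01, adjusted p = 2.34e-06) were below both.

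Lipid genes were also counted by class of metabolism. The tested suberin transport loci LOC112029276, LOC111989383 and LOC112038306 are members of the list for fatty acid elongation and wax too. Over all loci tested, 8.24% were higher than the midpoint, 12% lower and 2.6% above both parents. Of 20 tested loci for triacylglycerol synthesis and breakdown, 8 were higher than the midpoint (5 of them above both parents) and 0 lower, although the median of all 20 was -0.11, or 0.15 after median centring. The *TT2* match and the enoyl-CoA isomerase have the largest differences of this list. Of 15 loci for phospholipid signalling, 8 were higher than the midpoint and 1 lower, with a median of 1.13, but 5 were higher without tree 14 and 4 without tree 20. The largest were a match to the factor *GPRI1* (LOC112013245, also *GLK1*, an activator of chloroplast genes), at 3.18 (SE 0.72, adjusted p = 0.00359), and amidase 1 (LOC111997556), at 3.11 (SE 0.67, adjusted p = 0.00273). Against the linear-scale midpoint neither passed, at adjusted p = 0.196 and 0.0115, and amidase 1 also missed the threshold without tree 14 (adjusted p = 0.0108) or tree 20 (0.0132). Of 22 loci for fatty acid elongation and wax, 4 were higher and 0 lower. This count was 6 after median centring, 2 after quantile normalization and 2 without cork 87, cork 89 or tree 21, 14 or 18, and 1 locus was lower without rhytidome 33 or 67. Of 20 loci for jasmonate and oxylipins, 4 were higher and 2 lower, and the latter count was 1 without tree 14, 18 or 20. It was 3 without rhytidome 68. These lists follow the lipid classes of the study's own annotation.

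Rhytidome-dominant loci were split between those higher in rhytidome (906) and those higher in cork (954). *BAM3* (LOC112030870), a receptor kinase of protophloem in Arabidopsis, was at 4.31, 3.90, 5.32 and 6.39 in cork, at 11.15, 11.58, 12.20 and 10.90 in rhytidome and at 11.69, 12.95, 12.95 and 12.18 in the hybrids. Hybrids and rhytidome overlapped while both were far from cork. The midpoint difference was 4.22 (SE 0.43, adjusted p = 1.31e-05), and the hybrids differed from rhytidome by 0.98 (SE 0.50, adjusted p = 0.163). Laccase 14 (LOC112039871), of a family of oxidases of which some polymerize lignin, was at 7.96, 9.28, 8.46 and 9.62 in cork, 14.14, 13.27, 14.95 and 15.16 in rhytidome and 14.69, 14.72, 14.94 and 14.90 in the hybrids. The hybrids lay within the range of rhytidome. Carbonic anhydrase 2 (LOC112019297), an enzyme of carbon dioxide hydration, was at 7.44 ± 0.35 in cork, 14.05 ± 1.01 in rhytidome and 13.86 ± 0.58 in the hybrids, a position of 2.89%. Against the linear-scale midpoint the difference was 1.40 (adjusted p = 0.0164) for laccase 14 and 0.79 (adjusted p = 0.175) for carbonic anhydrase 2, neither past the threshold, whereas *BAM3* kept its call at 1.97 (adjusted p = 0.00763).

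Of the loci higher in cork, extensin *EXT3* (LOC112039578), a structural wall protein, was at 15.05, 14.81, 14.73 and 15.05 in cork, 11.52, 11.16, 11.76 and 10.63 in rhytidome and 9.83, 10.68, 8.91 and 10.32 in the hybrids. The hybrids were near the lowest rhytidome library or under it. The midpoint difference was -3.15 (SE 0.29, adjusted p = 5.63e-06), and the difference from rhytidome was -1.33 (SE 0.34, adjusted p = 0.0102). A locus matched to chromatin remodeling 31 (LOC112002935), a remodelling protein of RNA-directed DNA methylation, was at 8.46, 9.61, 9.65 and 9.37 in cork, 3.75, 2.88, 3.94 and 3.41 in rhytidome and 2.70, 4.25, 3.91 and 2.87 in the hybrids, whose values covered the range of rhytidome. The auxin response factors *ARF6* (LOC112032136) and *ARF2* (LOC111990207) were rhytidome-dominant with rhytidome higher, at positions of -26.4% and -0.52%. Quantile normalization lowered the *ARF6* midpoint difference from 1.36 to 0.87, under the threshold of 1.

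Cork-dominant loci were fewer, 96 with cork higher and 175 with rhytidome higher, and 4 named ones met the rule for naming, which asked for a mean of at least 5 and all hybrids on 1 side of the midpoint. A 2-oxoglutarate-dependent oxygenase (LOC112016434) was at 10.04, 9.88, 10.13 and 10.44 in cork, 5.47, 7.70, 6.71 and 5.73 in rhytidome and 11.001, 10.72, 10.84 and 11.66 in the hybrids. The hybrids were all above the highest cork library, without a call against cork. The midpoint difference was 2.79 (SE 0.36, adjusted p = 6.42e-05), and the difference from cork 0.93 (SE 0.41, adjusted p = 0.0827). It shares its Arabidopsis match with the oxygenase below both parents, LOC112040234. Lipoxygenase 3 (LOC112001646), which starts jasmonate synthesis, was higher in rhytidome. Its values were 7.49, 7.96, 8.34 and 9.18 in cork, 10.62, 11.10, 12.37 and 12.59 in rhytidome and 7.72, 7.81, 7.94 and 8.03 in the hybrids, which sat among the cork trees with a midpoint difference of -2.08 (SE 0.38, adjusted p = 0.000882). The zinc finger gene *ZAT10*-like (LOC112003415), a stress-induced repressor in Arabidopsis, was at 9.32, 9.80, 9.54 and 9.42 in cork, 11.03, 11.17, 12.51 and 12.44 in rhytidome and 10.22, 8.57, 7.65 and 8.66 in the hybrids. Tree 21 was the highest hybrid, between the parents, and the other trees were below all cork libraries. The midpoint difference of -1.88 (SE 0.42, adjusted p = 0.00342) missed the threshold without tree 14 (adjusted p = 0.0128), 18 (0.0135) or 20 (0.0122). *Lipoxygenase 2* (LOC111990533), in contrast, was rhytidome-dominant, at 9.25 ± 0.30 in cork, 12.12 ± 0.52 in rhytidome and 12.84 ± 0.42 in the hybrids.

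Among additive loci that met the rule for naming, the glycine-rich protein gene *GRP DC7.1-like* (LOC112034238) had the largest parental difference, 7.59 (SE 0.41, adjusted p = 2.46e-07). It was at 15.87, 15.50, 15.35 and 16.29 in cork, 8.20, 7.51, 8.45 and 8.50 in rhytidome and 10.01, 11.74, 10.97 and 12.23 in the hybrids. All hybrids lay between the parents without overlap, at a position of 40.5%, but against the linear-scale midpoint the difference was -3.52 (adjusted p = 3.43e-05), so its additive class holds on the log scale. *SOBIR1*, a receptor kinase of cell death and defence, was additive at both loci with rhytidome higher. LOC111990511 was at 8.10, 8.004, 9.42 and 9.75 in cork, 11.96, 12.07, 13.56 and 13.17 in rhytidome and 11.27, 10.06, 9.94 and 10.62 in the hybrids. LOC112013898 was at 8.70 ± 0.60, 12.03 ± 0.77 and 10.11 ± 0.64, in the same order. The hybrids lay at a position of 57.3% at LOC111990511 and 57.6% at LOC112013898. An alpha-tubulin (LOC112004381), a subunit of microtubules, was at 16.10, 16.04, 16.35 and 16.47 in cork, 14.98, 13.76, 14.64 and 13.95 in rhytidome and 14.65, 15.99, 15.62 and 15.94 in the hybrids. Tree 21 was within the range of rhytidome, and the other trees lay between the ranges of the parents.

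Some genes of the study's selection had no class and differed widely between trees. A locus matched to the receptor kinase *FER* (LOC112000806) was at 6.02, 4.85, 2.80 and 3.43 in cork, 12.65, 6.74, 12.38 and 11.63 in rhytidome and 2.91, 12.19, 9.39 and 12.61 in the hybrids. Tree 21 was at the level of cork and trees 14 and 20 at the level of rhytidome, and the midpoint difference of 1.71 (SE 1.67, adjusted p = 0.458) did not pass. *RBOHD* (LOC112002845), the oxidase of the reactive oxygen burst, was at 5.80, 5.05, 5.59 and 7.71 in cork, 12.71, 9.91, 13.18 and 13.11 in rhytidome and 10.75, 12.80, 12.33 and 9.37 in the hybrids. The hybrids were above all cork libraries, with a midpoint difference of 2.18 (SE 0.76, adjusted p = 0.0382).

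Markers of cell types were checked in the 3 barks. Of 10 phellem markers, 9 had a tested locus (15 loci). The mean level of these loci per library was 11.96 to 12.46 for cork, 10.3 to 10.6 for rhytidome and 7.05 to 8.42 for the hybrids. Of the 15 loci, 14 were lower than the midpoint, against 12% of all loci tested. Phloem was represented by 1 of its 7 markers, *BAM3*, at 3.90 to 6.39 in cork, 10.9 to 12.2 in rhytidome and 11.7 to 12.9 in the hybrids. A single laccase stood for lignifying cells, and the photosystem loci were at 4.15 to 4.83 in cork, 5.97 to 6.86 in rhytidome and 5.81 to 6.29 in the hybrids. No locus could be matched for dividing cells. The phellem markers are themselves members of the suberin lists and *BAM3* is the single phloem marker, so these values are no independent measure of the share of phellem or phloem in the scraped tissue, and its part in the suberin and *BAM3* results was not tested.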

How the data were processed

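RNA of outer bark was sequenced by the authors. According to the submitters' processing notes, reads were processed with FastQC, Trimmomatic 0.40, GSNAP, Cufflinks 2.2.1, HTSeq 0.11.1 and DESeq2 1.38.3. Pairs that mapped uniquely and concordantly to the cork oak genome were counted per locus, and the deposited values are regularized log2 counts (rlog), scaled for depth by the authors, from -2.29 to 20.1 over the 12 libraries. Whether counting used strand was not stated, and reads of overlapping genes on opposite strands may be mixed. Counts were not used here, so depth per library is unknown and no counting error is given.

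The rlog table was analysed with limma 3.58.1 (R 4.3.3), as 1 mean for each of 3 barks (4 libraries each, 9 residual degrees of freedom) and with a mean-variance trend, over 25556 loci with a mean of at least 1. The contrasts were hybrids minus the mean of the parents, cork minus rhytidome, and hybrids minus each parent. Loci were called at a Benjamini-Hochberg adjusted p under 0.01 within a contrast and a difference above 1, the thresholds of the study. All contrasts share the same libraries. Trees are the replicates, and p-values measure the spread between these trees.

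Alternatives changed the filter, the variance estimate, the scaling, the threshold, the scale of the midpoint and the bounds of the additive class, and left out each library in turn. Named genes are the study's selections, up to 5 named loci per class and direction (mean at least 5, hybrid libraries apart from those compared, by size) and the 2 loci per gene list with the largest midpoint difference. The further *ABCG11* copies were named after their values were seen. Lists of genes with no named locus in the study's tables gave no value. Members, lists and tests were chosen with earlier results of these data known. The fit was tested on simulated data. Figures were drawn with Python 3.11.15 and matplotlib 3.10.9.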

Additional observations from a re-analysis of the deposited data

Results flagged for a closer look

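Dixon's test was applied to 379 groups of 4 libraries, for 125 named loci, the library medians and the tree positions. In 16 of these groups a library lay far from the other 3. Chance alone flags about 1 group in 20, a share that these 16 did not exceed. Tree 21 was the low library in 5 of them. It was at 9.96 against 11.22 to 11.45 for the *TT2* match LOC112003190, and at 10.01 against 11.27 to 11.49 for *ASFT/FHT* (LOC112001733). It was also low at 3.24 against 5.07 to 5.08 for *ABCG2* (LOC111999232), at 7.16 against 9.42 to 9.87 for *GELP38* (LOC111998717), and at 10.67 against 12.27 to 12.34 for *GELP51* (LOC112038078).

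Other hybrid trees stood apart at 4 loci. Tree 14 was low at 13.28 for an ABC-2 type transporter (LOC112012025) and at 14.31 for *ARF2* (LOC111990207), and tree 20 was high at 15.48 for heat shock protein 21 (LOC112008682) and at 12.78 for a *FER* match (LOC112029792).

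Of the parents, rhytidome 33 was high at 14.84 for *ASFT/FHT* (LOC112001733), rhytidome 68 at 10.30 for an alpha dioxygenase (LOC112027093) and at 11.42 for *PTL* (LOC111994212), and rhytidome 67 was low at 9.91 for *RBOHD* (LOC112002845). Cork 87 was low at 9.90 for *ABCG2* (LOC111999232). Cork 91 was low at 7.79 for *MYB4* (LOC111990470) and high at 1.02 for *PER39* (LOC112024643).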

How the results depend on the processing

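Of 125 named loci, 83 stayed on the same side of the threshold under every setting tried, 42 changed side under at least 1, and 0 changed sign with a call. A test of a difference above 1 (treat) gave 430 loci higher than the midpoint and 1045 lower, 2168 between the parents, 3113 against cork and 568 against rhytidome. Its calls placed 50 loci above both parents and 253 below both. An adjusted p under 0.05 gave 5361 against rhytidome and 629 cork-dominant loci. Median centring gave 3193 higher than the midpoint and 1383 above both parents. A linear-scale midpoint gave 426 cork-dominant loci. At a mean rlog of at least 5, 1027 loci were additive and 981 unresolved, and with median centring added (an alternative chosen after seeing the data, as were the treat counts outside both parents and the counts per list without each library) 1015 and 1011. Additive bounds of 40 to 60% gave 766 additive and 2976 unresolved loci, and position alone 3018 rhytidome-dominant, 954 cork-dominant and 0 unresolved. The median position was 2.56% at a mean of at least 5 (loci called again), 13.9% after quantile normalization and 25.1% for parental differences above 2.

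Leaving out 1 library at a time gave 1730 to 2130 loci higher than the midpoint and 2650 to 2991 lower, 5361 to 6530 between the parents, 6555 to 7258 against cork and 2801 to 3638 against rhytidome. The classes ran from 489 to 766 above both, 1046 to 1351 below both, 1597 to 1853 rhytidome-dominant, 196 to 270 cork-dominant, 1512 to 1880 additive and 1540 to 2188 unresolved, and the median position from 14.4% to 18.1%. No paired analysis was possible because the library numbers are tree numbers that no groups share. With 4 trees a bark, values of unknown depth and a reference genome from 1 parent, small differences and loci of few counts are placed with little precision.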
